A study of Mus musculus with 6 samples.

Results

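The genes described here encode proteins with which smooth muscle cells and myofibroblasts contract: the muscle actins Acta2 and Actg2, the myosin subunits Myh11 and Myl9, the tropomyosins Tpm1 and Tpm2, the actin-binding regulators Tagln, Cnn1 and Cald1, and the intermediate filament gene Des. They were listed by name, and all 10 were found among the 55487 gene identifiers of the count table. All 10 also passed the filter on low counts, which left 19015 genes to test.

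Cells isolated from the skin of C57BL/6 mice with magnetic beads against CD31, and labelled as endothelial, were cultured for 48 h in medium with 5 mmol/L glucose (normal glucose) or 20 mmol/L glucose (high glucose). An isolation used 4 to 6 mice aged 2 to 3 months, so the cells of several animals were pooled. PolyA RNA of 3 samples per condition was sequenced in bulk to find the transcripts that differ under high glucose. The samples held between 120192466 and 146881356 counts. The paper counts the sequenced replicates by mice, and the labels do not say that they came from separate isolations, so the p-values measure the spread among these samples, which may be technical.

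Contraction of smooth muscle rests on myosin filaments that pull on actin filaments once the regulatory light chain of myosin is phosphorylated. Tropomyosin lies along the actin filament, and calponin and caldesmon bind there and restrain the myosin motor. Fibroblasts that take up part of this program during wound repair are called myofibroblasts, and many of the genes are controlled by serum response factor (SRF) and its cofactors, the myocardin-related transcription factors (MRTFs).

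The endothelial label was checked first against marker genes. Pecam1, the gene of the bead target CD31, lay between 0.0634 and 0.152 CPM over the 6 samples, where CPM are counts relative to the scaled library total. Sox17, an endothelial transcription factor, had 0 counts in all 6 samples, where the limit set by 3 counts lay between 0.0211 and 0.0258 CPM. The receptor gene Tie1 and the tight junction gene Cldn5 were near 0 as well: Tie1 had 2 counts in 1 normal glucose sample, and Cldn5 had 1 count in a normal glucose sample and 4 in a high glucose sample. Cdh5, the cadherin of endothelial junctions, had between 1.71 and 1.84 CPM in normal glucose and between 0.783 and 0.927 CPM in high glucose. Kdr, a receptor for vascular endothelial growth factor, lay between 4.60 and 5.74 CPM and Vwf, the von Willebrand factor gene, between 0.628 and 1.12 CPM. The most abundant of the 16 endothelial markers was Eng, a coreceptor for transforming growth factor β that other cell types also express, with between 136 and 166 CPM over the 6 samples. Flt1, another receptor for vascular endothelial growth factor, lay between 38.3 and 56.6 CPM and Egfl7 between 9.27 and 11.7 CPM. Sox17 was thus not detected, and Pecam1, Tie1, Cldn5, Cdh5, Kdr and Vwf, picked as defining with their values known, were at or below 5.74 CPM, whereas Col3a1, a fibrillar collagen gene of fibroblasts, was at or above 11670.1 CPM in every sample.

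High glucose samples had lower levels of most of the contractile genes. In the quasi-likelihood test of edgeR, at a Benjamini-Hochberg adjusted p under 0.05 over all genes tested, 7 of the 10 genes were called lower, against 14.5% of all genes tested. Without high glucose replicate 1 the count was 4 of 10, with Actg2, Tpm2 and Des no longer called. The 3 samples of each condition did not overlap, with high glucose lower, for the same number of members, 7 of 10, against 21.3% of all genes. No member was called higher by edgeR, against 16.9% of all genes, and none had a non-overlapping higher group, against 25.1%. At an unadjusted p under 0.05, edgeR gave 8 members lower, against 19.8% of all genes, and 0 higher, against 22.5%. DESeq2 at the same unadjusted threshold also gave 8 lower, against 18.6% of the genes tested by edgeR, and 0 higher, against 20.4%. After adjustment DESeq2 gave 6 lower, against 14.6%, and 0 higher, against 16.3%. The median log2 fold change of the 10 genes was -0.32, beside a median of 0.0062 over all genes tested. Of all calls 46.2% were lower under this scaling (TMM), and 72.9% under scaling by library size alone, which moves the median of all genes by -0.11. In bulk samples, fewer cells of a type and less RNA per cell cannot be told apart.

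The 10 genes together held a summed level of 2190, 1962 and 2045 CPM in the normal glucose samples and 1716, 1809.7 and 1782 CPM in the high glucose samples. Every high glucose sample lay below every normal glucose sample. Their share of the raw counts, without the TMM scaling used for CPM, was 0.215% ± 0.0117 with normal glucose and 0.170% ± 0.00367 with high glucose (SD, n = 3 each). On the log2 scale the summed level differed by -0.22 with TMM and by -0.34 with library size alone.

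**Figure D1:**
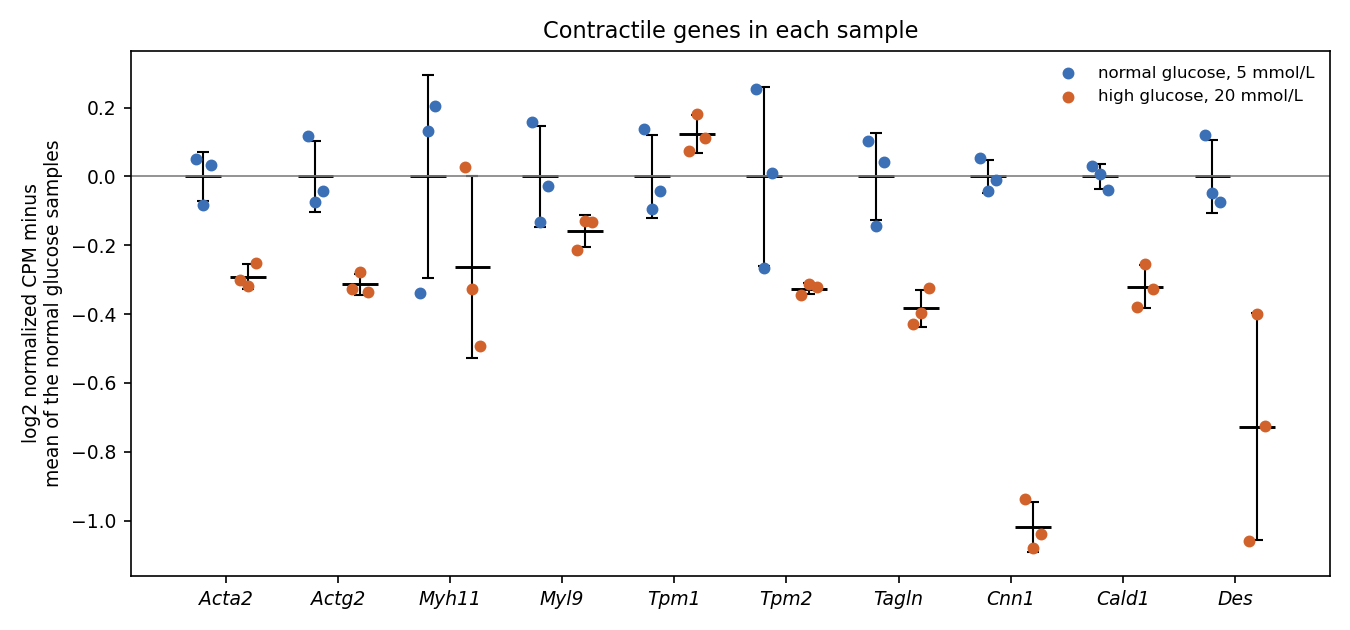
Level of each contractile gene in each sample, as the log2 normalized CPM minus the mean of the normal glucose samples. Points are samples and black bars the mean and SD of 3 samples, and the high glucose mean is lowest for Cnn1, whose log2 fold change was -1.02, with 1 sample of Des in the range of the Cnn1 samples.

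Acta2 encodes smooth muscle α-actin, the protein most used to recognize myofibroblasts. Its level was 403, 367 and 398 CPM in the normal glucose samples and 316, 312 and 327 CPM in the high glucose samples. All high glucose samples were below all normal glucose samples, and the gap between the conditions was about as wide as the spread of the normal glucose samples. The log2 fold change was -0.29 (SE 0.054, edgeR adjusted p = 0.00234), lower in 3 of 3 high glucose samples.

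Actg2, the γ-actin of enteric smooth muscle, was far less abundant, with 340, 337 and 311 counts at normal and 283, 240 and 267 counts at high glucose. After scaling these were 2.72, 2.38 and 2.43 CPM against 2.00, 2.06 and 1.98 CPM. The conditions did not overlap, and the gap between them was about as wide as the spread of the normal glucose samples. The log2 fold change was -0.32 (SE 0.10, edgeR adjusted p = 0.0395), and this call was lost in 11 of the 17 alternative settings that kept Actg2 on its own, over which the adjusted p ran from 0.00859 to 0.107. Among these, the edgeR adjusted p was 0.0751 without normal glucose replicate 1, 0.0634 without normal glucose replicate 3, 0.09995 without high glucose replicate 1, 0.0665 without high glucose replicate 2 and 0.107 without high glucose replicate 3.

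The promoters of Acta2 and Myl9 are shown because of the CArG box, the sequence that SRF binds: the Myl9 window holds a match to it, and the Acta2 window holds matches to a looser form alone. The windows, 250 bases before to 50 after the start site, come from RefSeq (build GRCm38.p6) and were found for 7 of the 10 genes, all but Tagln, Myh11 and Actg2. A CArG box on either strand is present in 1.63% of 32851 windows, and a form with 1 central C or G in place of A or T is present in 8.5%. The looser form was added after the windows were seen. Acta2 has a pair of the looser matches, on the minus strand at chr19:34255438-34255467 and chr19:34255388-34255417, and Myl9 has a CArG box at chr2:156775293-156775322 and a looser match at chr2:156775355-156775384, both on the plus strand. Capitals mark the match, and the coordinates span the whole line, with 10 bases on either side of the match. Each line runs 5′ to 3′ on the strand of the gene.
Acta2 upstream match: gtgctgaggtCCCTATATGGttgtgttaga
Acta2 downstream match: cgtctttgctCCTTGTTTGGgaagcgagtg
Myl9 CArG box: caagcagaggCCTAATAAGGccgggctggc
Myl9 looser match: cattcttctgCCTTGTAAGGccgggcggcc
The MCAT element (CATTCC, either strand), known for binding TEAD factors, is present in 14.7% of windows and was found in those of Acta2, Tpm1 and Cald1. A match is a description of the sequence, and binding was not measured here.

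Myh11 encodes the smooth muscle myosin heavy chain, a late marker of the differentiated smooth muscle cell. It had 63, 99 and 94 counts in the normal glucose samples and 92, 59 and 61 counts in the high glucose samples. The conditions overlapped, with normal glucose replicate 1 among the low samples and high glucose replicate 1 among the high ones. Its log2 fold change of -0.27 was not called (95% interval -0.73 to 0.20, edgeR adjusted p = 0.364). It was -0.45 without high glucose replicate 1, -0.43 without normal glucose replicate 1, -0.18 without normal glucose replicate 3 and -0.17 without high glucose replicate 3. With trends on GC content and length removed it was -0.44, and in none of these settings was it called.

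Myl9, the regulatory light chain whose phosphorylation starts contraction, was at 72.9, 59.6 and 64.1 CPM in normal glucose and at 56.3, 59.7 and 59.5 CPM in high glucose. Normal glucose replicate 1 was the highest, while normal glucose replicate 2 lay within the range of the high glucose samples. Its log2 fold change was -0.16 and was not called (95% interval -0.33 to -0.0010, edgeR adjusted p = 0.116). Without normal glucose replicate 2 it was -0.24 and called (edgeR adjusted p = 0.0206), as it was with library size alone, at -0.28. Without normal glucose replicate 1 it was -0.098, and with trends on GC content and length removed -0.10, neither called. Over 17 alternatives the adjusted p ran from 0.0136 to 0.249.

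Of the tropomyosins, Tpm2 was called lower and Tpm1 was not called. Both genes give muscle and non-muscle isoforms through alternative promoters and splicing, which counts per gene do not separate. Tpm1 was at 443, 377 and 391 CPM in the normal glucose samples and at 424, 457 and 435 CPM in the high glucose samples. Apart from normal glucose replicate 1, which lay within the range of the high glucose samples, the high glucose samples were the higher ones. The log2 fold change of Tpm1 was 0.12 and was not called (95% interval -0.028 to 0.27, edgeR adjusted p = 0.2), and without normal glucose replicate 1 it was 0.17 and called higher (edgeR adjusted p = 0.0166). It was 0.063 without normal glucose replicate 2 and 0.076 without high glucose replicate 2, neither called. Scaling by library size alone left it at 0.0051, and over 17 alternatives the adjusted p ran from 0.0166 to 0.961.

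Tpm2 was at 186, 130 and 157 CPM in normal glucose and at 123, 125 and 125 CPM in high glucose. The normal glucose samples were widely spread, and the lowest of them was only a little above the high glucose samples. Its log2 fold change was -0.34 (SE 0.10, edgeR adjusted p = 0.0310), a call lost in 6 of 17 alternative settings, over which the adjusted p ran from 0.00107 to 0.0793. Among these, the edgeR adjusted p was 0.0698 without normal glucose replicate 3, 0.0793 without high glucose replicate 1, 0.0712 without high glucose replicate 2 and 0.0688 without high glucose replicate 3. Without normal glucose replicate 1 the log2 fold change was -0.22, and the call was kept. Within a sample, the log2 ratio of Tpm1 to Tpm2, chosen after its values were seen, was 1.25, 1.54 and 1.32 with normal glucose and 1.79, 1.87 and 1.81 with high glucose. The conditions did not overlap in this ratio.

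Tagln, Cnn1 and Cald1 encode the actin-binding proteins SM22α, calponin and caldesmon, and all were called lower in high glucose. Tagln was at 279, 235 and 267 CPM in normal glucose and at 193, 197 and 208 CPM in high glucose, without overlap. For Tagln the log2 fold change was -0.39 (SE 0.068, edgeR adjusted p = 0.00167). Exons of Tagln overlap those of Pcsk7 and Gm48529 on the opposite strand, and 53.3% of its 75-base stretches also occur there, so reads from these stretches cannot be told apart by sequence alone. Pcsk7 had between 34.7 and 36.4 CPM in normal glucose and between 37.4 and 40.1 CPM in high glucose, while Gm48529 had between 28.8 and 32.7 CPM and between 22.6 and 24.9 CPM.

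Cnn1 had the largest change in size among the 10 genes. It was at 5.69, 5.33 and 5.44 CPM in the normal glucose samples, from 713, 756 and 697 counts. In the high glucose samples it was at 2.86, 2.60 and 2.67 CPM, from 406, 302 and 360 counts. Samples of 1 condition lay close together and the conditions were far apart. The log2 fold change was -1.02 (SE 0.088, edgeR adjusted p = 1.41e-05), and the mean CPM changed by -50.6%.

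Cald1, which like the tropomyosins has muscle and non-muscle isoforms that are not separated here, was at 797, 784 and 759 CPM in normal glucose and at 599, 653 and 622 CPM in high glucose. The lowest normal glucose sample was well above the highest high glucose sample. Its log2 fold change was -0.32 (SE 0.053, edgeR adjusted p = 0.00114).

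Des encodes desmin, the intermediate filament protein of muscle cells. It had 122, 123 and 109 counts in the normal glucose samples and 61, 79 and 73 counts in the high glucose samples. In CPM these were 0.974, 0.867 and 0.851 against 0.430, 0.679 and 0.542, without overlap but with a wide spread in high glucose. The log2 fold change was -0.71 (SE 0.18, edgeR adjusted p = 0.0148), and without high glucose replicate 1, the lowest sample, it was -0.58 with the call lost (edgeR adjusted p = 0.0518). The adjusted p ran from 0.00384 to 0.0518 over 17 alternatives. Of the 75-base stretches of Des, 3.94% also occur in Gm15179 on the opposite strand, which had 0 counts in all samples. The remaining 8 genes, apart from Tagln and Des, shared no 75-base stretch with another gene.

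In the GENCODE annotation of GRCm38, Tpm1, Tagln and Cnn1 are all on chromosome 9. Acta2 (ENSMUSG00000035783) is at chr19:34241090-34255590 on the minus strand and Cnn1 (ENSMUSG00000001349) at chr9:22099216-22109630 on the plus strand. Tagln (ENSMUSG00000032085) is at chr9:45929619-45936058 and Tpm1 (ENSMUSG00000032366) at chr9:67022590-67049406, both on the minus strand.

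Levels of different genes were compared as normalized RPKM, that is CPM per kilobase of exon. In normal glucose Acta2 was highest at 177 ± 8.75 RPKM (SD, n = 3), followed by Tagln at 131 ± 11.3 RPKM. Next came Cald1 at 64.8 ± 1.61, Tpm1 at 62.2 ± 5.33, Myl9 at 56.4 ± 5.84 and Tpm2 at 54.1 ± 9.63 RPKM, and each of these overlapped its neighbour in the order. The last 4 genes were Cnn1 at 2.01 ± 0.0682, Actg2 at 1.61 ± 0.117, Des at 0.239 ± 0.0178 and Myh11 at 0.0849 ± 0.0163 RPKM, with no overlap between neighbours. In high glucose Acta2, at 145 ± 3.55 RPKM, and Tagln, at 100.2 ± 3.79 RPKM, were again highest. Tpm1, at 67.6 ± 2.56 RPKM, then stood above Cald1, at 51.9 ± 2.26 RPKM, without overlap, and Cald1 overlapped Myl9 at 50.4 ± 1.63 RPKM. Cnn1, at 0.991 ± 0.05 RPKM, stood below Actg2, at 1.29 ± 0.0286 RPKM, without overlap.

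**Figure D2:**
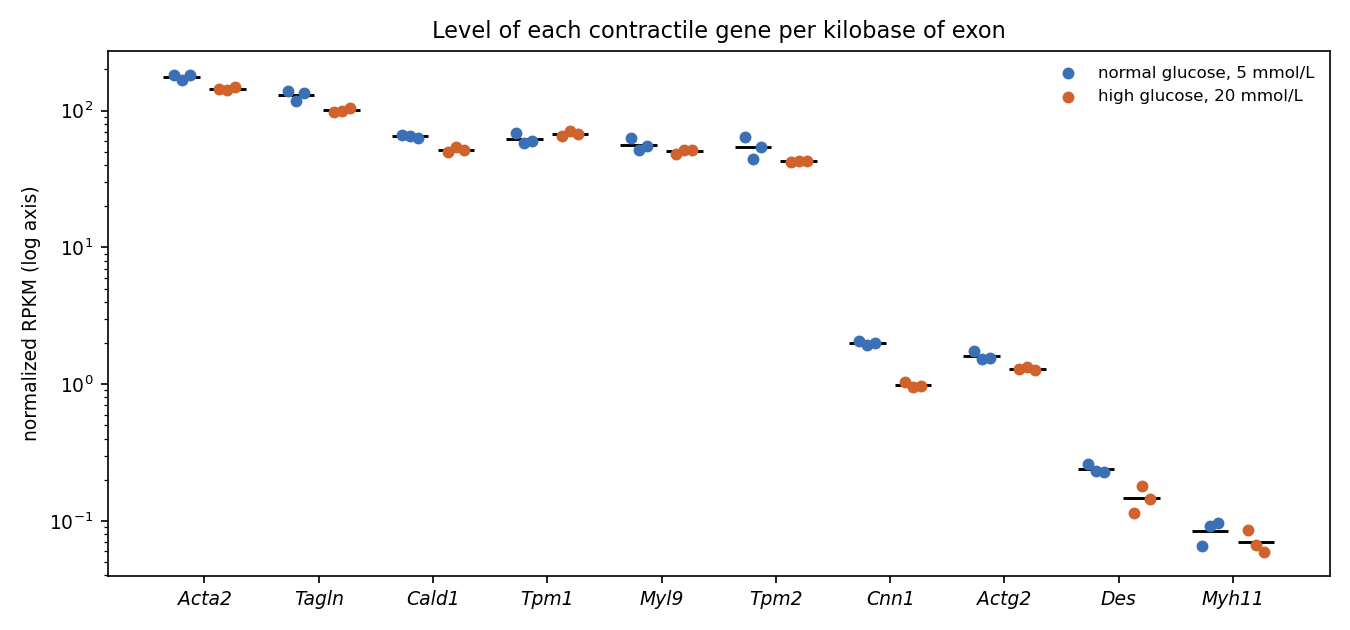
Level of each contractile gene per kilobase of exon, as normalized RPKM on a log axis, in each of the 3 samples per condition; black lines are means. Acta2 and Tagln are highest in both conditions, and Myh11 is lowest, at 0.0849 RPKM in normal glucose.

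Most contractile genes have relatives that serve the cytoskeleton of other cells, and 16 were examined. Some serve nearly every cell, but not all were abundant here, with Synm between 0.619 and 1.16 CPM and Myh14 between 0.393 and 1.03 CPM. Of the 16, 2 were called higher and 6 lower, and their median log2 fold change was -0.14, or -0.26 with library size alone. Over all genes tested, 16.9% were called higher and 14.5% lower, shares that also stand beside the counts of the lists below. The most abundant in mean CPM over the 6 samples was Vim, the intermediate filament gene of mesenchymal cells. Vim was at 2674, 2446 and 2585 CPM in normal glucose and 1805, 1828 and 1823 CPM in high glucose. Actb stood above Vim in high glucose replicates 1 and 3, and per kilobase of exon in every sample. For Vim the conditions did not overlap, and the log2 fold change was -0.50 (edgeR adjusted p = 5.03e-05). Tagln2 and Cnn3, relatives of Tagln and Cnn1, were called higher, with log2 fold changes of 0.26 (edgeR adjusted p = 0.00442) and 0.20 (edgeR adjusted p = 0.00917). The largest falls beside Vim were those of the low-abundance genes Myh14, a non-muscle myosin heavy chain, at -0.77 and Synm, an intermediate filament gene, at -0.58. With library size alone neither Tagln2 (0.14) nor Cnn3 (0.089) was called. The call of Cnn3 was also lost without high glucose replicate 2 (0.18) or 3 (0.17), and that of Myh14 without normal glucose replicate 2 (-0.63) or high glucose replicate 1 (-0.72) or 3 (-0.63).

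Ratios within a sample do not depend on how libraries are scaled, and 9 pairs of a muscle gene and its relative were compared by a two-sided exact permutation test, for which 3 against 3 samples cannot give a p below 0.1. The conditions did not overlap for 5 of the 9 pairs, each with an exact permutation p of 0.1 and an adjusted p of 0.18, so no pair passed. High glucose was lower in 4 of these pairs and higher in 1. Among single genes 21.3% and 25.1% did not overlap in these directions, and the share among ratios of other genes was not computed. In the 4 lower pairs the muscle gene was itself lower without overlap, and the pairs of Acta2 and Actg2 share Actb. The log2 ratio of Tagln to Tagln2 was 1.06, 0.92 and 1.02 with normal glucose and 0.36, 0.35 and 0.38 with high glucose. That of Cnn1 to Cnn3 was -5.64, -5.76 and -5.72 with normal glucose and -6.80, -7.00 and -6.97 with high glucose. Both ratios were lower in every high glucose sample, by -0.64 and -1.22 in the difference of means. For Acta2 to Actb, the difference was smaller, at -0.11, from a mean of -2.42 ± 0.059 to -2.53 ± 0.036 (SD, n = 3 each). Actg2 to Actb differed by -0.13, also without overlap. The ratio of Tpm1 to Tpm3 was higher in every high glucose sample, with a difference of 0.29.

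The remaining pairs overlapped. Their differences were -0.42 for Myh11 to Myh9, -0.031 for Myl9 to Myl12a, -0.17 for Tpm2 to Tpm4 and -0.23 for Des to Vim. Leaving out normal glucose replicate 1 gave 0.019 for Myl9 to Myl12a and -0.072 for Tpm2 to Tpm4, which was -0.28 without normal glucose replicate 2. Against the sum of Myl12a and Myl12b, Myl9 differed by -0.096 without overlap (two-sided exact permutation p of 0.1, adjusted 0.16). Des to Vim was -0.071 without high glucose replicate 1 and -0.39 without high glucose replicate 2. For this pair, high glucose replicate 2 had a higher ratio than any normal glucose sample, and the difference was smaller than the spread of the high glucose samples.

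**Figure D3:**
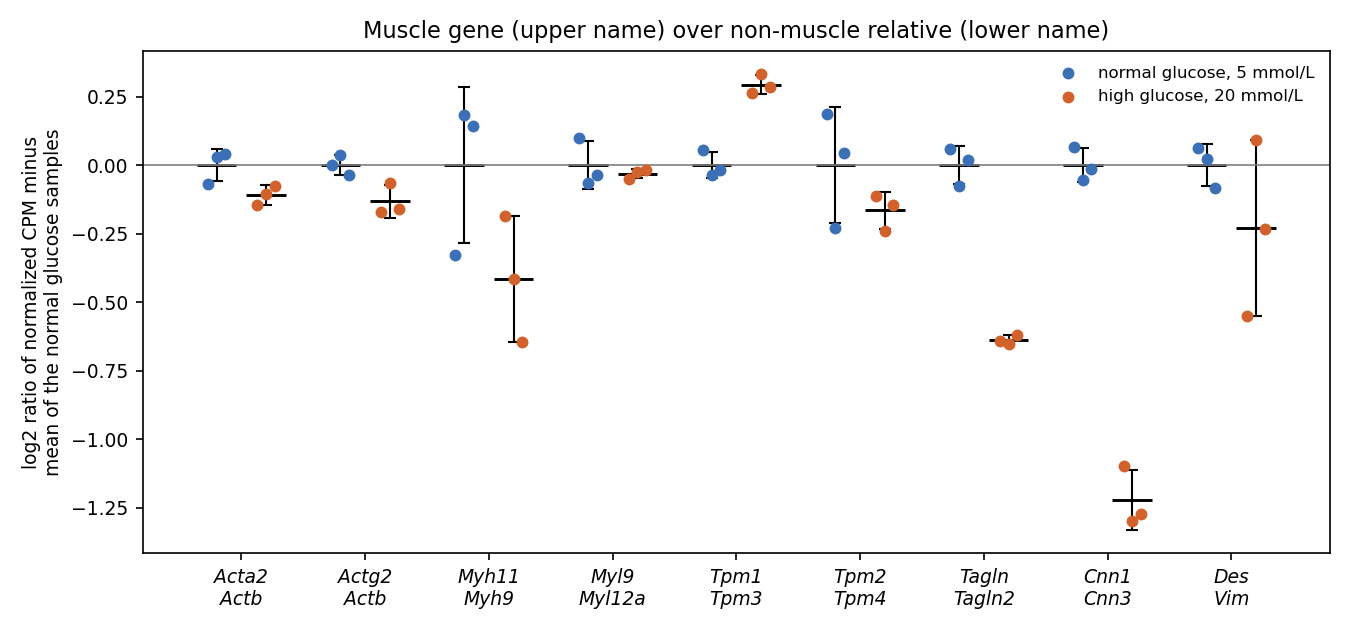
Log2 ratio of each muscle gene to its non-muscle relative in each sample, minus the mean of the normal glucose samples. Points are samples and black bars give the mean and SD of 3 samples; the ratio of Cnn1 to Cnn3 differs most, by -1.22, and that of Tpm1 to Tpm3 is higher in every high glucose sample.

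Of 28 further genes of the smooth muscle apparatus, 27 were tested, 9 were called higher and 6 lower, with a median log2 fold change of 0.070. Under scaling by library size alone that median was -0.044, so the list as a whole has no direction that holds under each scaling. Mylk encodes the kinase that phosphorylates the light chain encoded by Myl9, and counts per gene do not separate the isoforms of Mylk. It was at 31.3, 31.0 and 31.1 CPM in the normal glucose samples and at 83.3, 89.1 and 89.2 CPM in the high glucose samples. The normal glucose samples were nearly equal and all high glucose samples were far above them, with a log2 fold change of 1.48 (SE 0.052, edgeR adjusted p = 4.12e-08). The log2 ratio of Mylk to Myl9, chosen after its values were seen, had a mean of -1.07 ± 0.14 with normal glucose and 0.57 ± 0.010 with high glucose (SD, n = 3 each).

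Pdlim3, a protein of muscle Z-discs, was at 0.791, 0.952 and 0.726 CPM in normal glucose and at 3.35, 3.41 and 2.98 CPM in high glucose. Its log2 fold change of 1.98 (edgeR adjusted p = 2.10e-06) was the largest rise in the list, and Csrp2 followed Mylk with 0.39 (edgeR adjusted p = 0.00269). The largest called falls were those of Jph2, a protein of membrane junctions in muscle, at -0.53, the integrin gene Itga8 at -0.46 and Ppp1r14a, an inhibitor of myosin phosphatase, at -0.40. Flna, the filamin that crosslinks actin, was the most abundant in CPM, though not per kilobase of exon in normal glucose. Its log2 fold change was 0.32 (edgeR adjusted p = 0.00975). The call was lost without high glucose replicate 1 (0.27) or 3 (0.29) and with library size alone (0.20). Kcnmb1, a subunit of the calcium-activated potassium channel of smooth muscle, had 15, 10 and 17 counts in normal glucose and 0 in each high glucose sample. It did not pass the filter, and over each group it was at least 13.9-fold lower in high glucose, against a floor of 3 counts.

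Among 13 regulators of contractile genes, 12 were tested, 5 were called higher and 1 lower, with a median log2 fold change of 0.15, or 0.032 with library size alone. Srf was at 44.2, 49.4 and 53.1 CPM in normal glucose and at 59.5, 54.4 and 56.8 CPM in high glucose, and its log2 fold change of 0.22 (edgeR adjusted p = 0.0396) lost its call in 12 of 17 alternative settings. The MRTF genes Mrtfa and Mrtfb had log2 fold changes of 0.29 (edgeR adjusted p = 0.00682) and 0.30 (edgeR adjusted p = 0.0371), and the call of Mrtfb was lost in 10 of 17 settings. With library size alone none of the 3 was called, at 0.10 for Srf, 0.18 for Mrtfa and 0.19 for Mrtfb. Without a sample, Srf was not called except when normal glucose replicate 3 was left out, and had its lowest value, 0.13, without normal glucose replicate 1; Mrtfb was not called without normal glucose replicate 3 (0.31) or without high glucose replicate 1 (0.30), 2 (0.29) or 3 (0.26), and was lowest, at 0.17, without normal glucose replicate 1. Klf4, a repressor of contractile genes in smooth muscle, was called lower, at 49.3, 52.9 and 53.9 CPM in normal glucose and 31.6, 31.0 and 32.1 CPM in high glucose. The log2 fold change of Klf4 was -0.72 (edgeR adjusted p = 5.04e-06). Myocd, the smooth muscle cofactor of SRF, had 0 counts in the normal glucose samples and 5 counts over the high glucose samples.

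Of 15 genes listed as SRF-MRTF targets outside the contractile set, 1 was called higher and 5 lower. Their median log2 fold change was -0.13, or -0.24 with library size alone. The list does not separate control by MRTFs from control by other factors. The largest falls were those of Ankrd1 at -0.70, Fos at -0.58 and Ccn2 at -0.51. Itgb1, the most abundant gene in CPM but not per kilobase of exon, had a log2 fold change of -0.25. Ccn2, which encodes connective tissue growth factor, was at 147, 153 and 158 CPM in normal glucose and 109, 107 and 106 CPM in high glucose. Amotl2 was called higher, with a log2 fold change of 0.25 (edgeR adjusted p = 0.00453), and not called with library size alone, at 0.14.

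**Figure D4:**
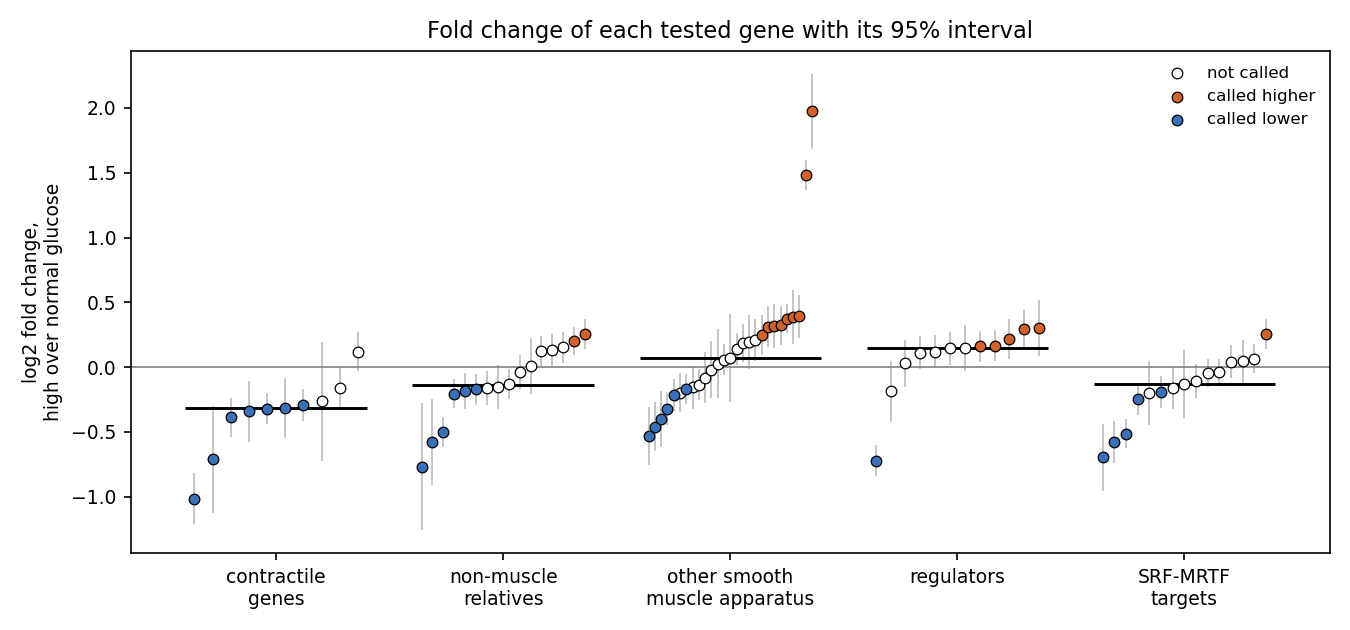
Log2 fold change, high over normal glucose, of every tested gene of the contractile set and of the related lists, with its 95% interval. Filled points were called at an adjusted p under 0.05 and black lines are list medians; the contractile median is -0.32, and Pdlim3 and Mylk stand highest, at 1.98 and 1.48.

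The genes whose pattern over the 6 samples was nearest to that of Acta2, by the root mean square difference of centred log2 CPM among 10011 genes, were Rack1 (0.0095), Rpl10, Rplp0, Rps10 and Syndig1 (0.019). For Cnn1, among 10012 genes, they were Inka2 (0.045), Tpx2, Ass1, Ccnf and Serinc2 (0.059).

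Some markers of other cell types also differed between the conditions, and the part of these markers in the results was not tested. Of all genes tested, 16.9% were called higher and 14.5% lower. Of 15 fibroblast markers, 11 were called higher and 3 lower, and their summed level was 46235, 43375 and 46979.8 CPM in normal glucose and 78993, 80954 and 76238 CPM in high glucose. Col3a1 led this list, and Col1a1, Pdgfra and Dcn rose with log2 fold changes of 0.76, 0.46 and 0.59. The 3 markers called lower were S100a4 at -1.27, Twist2 at -0.70 and Thy1 at -0.40. The log2 ratio of Acta2 to Col1a1, chosen after its values were seen, was -4.32 ± 0.038 with normal glucose and -5.37 ± 0.094 with high glucose (SD, n = 3 each).

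Of 13 mural markers, which mark pericytes and vascular smooth muscle, 11 were tested, 4 were called higher and 2 lower. The median log2 fold change of those tested was 0.081, or -0.033 with library size alone, so its sign depends on the scaling. The summed level of all 13 was 1025, 1073 and 1111 CPM in normal glucose and 1204, 1169 and 1211 CPM in high glucose. Much of the difference lay in Anpep, at 88.3, 98.0 and 97.8 CPM with normal glucose and 186, 192 and 191 CPM with high glucose. Pdgfrb, the most abundant in CPM but not per kilobase of exon, had between 494 and 593 CPM over the 6 samples. Its log2 fold change of 0.081 was not called. The sign turned without normal glucose replicate 1 (-0.0047), with library size alone (-0.033) and with GC and length trends removed (-0.11, called lower). Rgs5 was called higher at 1.20 and Cspg4 lower at -0.91 on the log2 scale, while Kcnj8 and Higd1b stayed at or below 0.0937 CPM in every sample.

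Of 16 endothelial markers, 10 were tested, 2 (Tek and Erg) were called higher and 3 (Cdh5, Flt1 and Egfl7) lower. The summed level of all 16 was 216, 234 and 243 CPM in normal glucose and 199.8, 194 and 199.6 CPM in high glucose. Most of it was Eng, which was not called and had a mean of 155 of 231 CPM in normal glucose. Of 26 skeletal muscle markers, 10 were tested, 1 was called higher and 4 lower, and their summed level was 12.8, 10.5 and 13.0 CPM with normal glucose and 8.03, 7.80 and 7.57 CPM with high glucose. Their defining genes Myod1, Myog, Myf5 and Myf6 had 0 counts in all samples. The most abundant marker in mean CPM over the 6 samples was the skeletal actin gene Acta1. It was called lower with a log2 fold change of -1.69 (edgeR adjusted p = 2.79e-06). In high glucose the marker Tnnc1 stood above Acta1 in every sample, so the rank holds for normal glucose.

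Of 8 keratinocyte markers, led by Trp63 in mean CPM over the 6 samples, 4 were tested and 1, Krt5, was called higher. Krt10 had the higher mean in normal glucose (2.32 against 2.26 CPM for Trp63), and per kilobase of exon in both conditions. The 8 markers summed to 4.96, 5.13 and 4.23 CPM in the normal glucose samples and 5.13, 4.70 and 4.93 CPM in the high glucose samples. The counts of Krt5 were 2, 2 and 2 at normal against 23, 12 and 14 at high glucose, and those of Krt14, which was not tested, 2, 0 and 0 against 35, 9 and 31. Of 8 macrophage and mast cell markers, 3 were tested and 2 were called lower. Csf1r led this list in CPM but not per kilobase of exon, and Fcer1a was at 0. The 8 markers summed to 9.46, 8.42 and 9.14 CPM against 5.82, 6.04 and 6.61 CPM. Of 8 Schwann cell and melanocyte markers, 6 were tested, 1 was called higher and 3 lower. Mitf led this list in CPM, though not per kilobase of exon in normal glucose, and Tyr was at 0. The 8 markers summed to 35.1, 36.1 and 34.9 CPM against 32.8, 32.9 and 31.7 CPM.

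**Figure D5:**
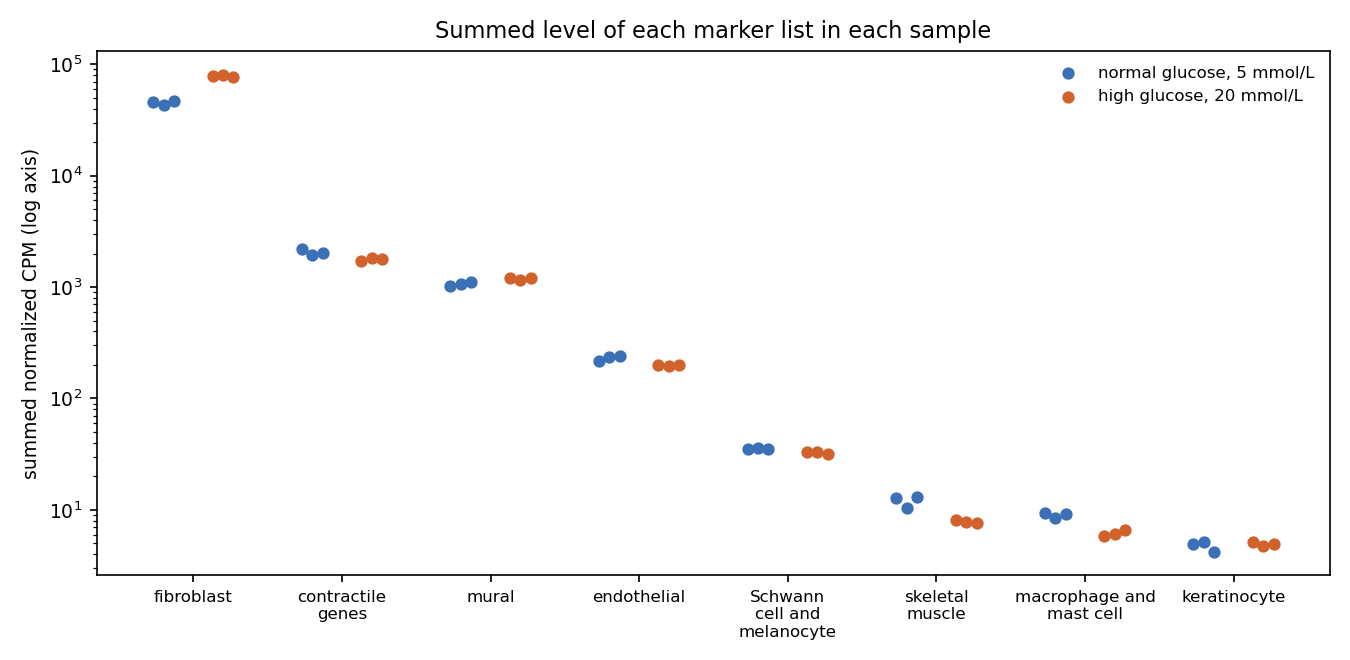
Summed normalized CPM of each marker list in each sample, on a log axis. The fibroblast list is highest, at 78993 CPM in high glucose replicate 1, and the contractile genes, at 1716 CPM there, stand above the mural and endothelial lists.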

How the data were processed

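The authors trimmed reads with Trimmomatic, aligned them to the mouse genome (GRCm38, mm10) with HISAT2 and counted them per gene with StringTie, per their processing notes, which also name edgeR, and they deposited counts, between 120192466 and 146881356 per sample. From these counts, genes passing edgeR's filterByExpr (minimum count 10, minimum total 15) were scaled by TMM and tested with edgeR 4.0.16 (R 4.3.3) by the quasi-likelihood test, 3 high against 3 normal glucose samples, and an adjusted p under 0.05 was called. Symbols were matched for 55141 of 55487 identifiers; where a symbol had several, the one with most counts was used. CPM and RPKM use the TMM library sizes and the union of exons in GENCODE. Floors (3 counts) cover counting error only. Steps were tested on simulated data, where the false share of edgeR's calls exceeded the nominal level, which bears on calls near the threshold such as Actg2 and Tpm2. Alternatives used DESeq2 1.42.0, other scalings, filters and thresholds, each sample left out, the replicate block and, added later, a GC and length correction (mgcv 1.9.3). The members and lists were chosen with earlier results of these data known, as were the marker genes named as defining. Named outside the members were the 3 largest called rises and falls of each related list, its most abundant gene and paired relatives. Of marker lists, the most abundant and the defining genes were named. Most abundant here means the highest mean CPM over all 6 samples. Kcnmb1, Myocd, Pcsk7, Gm48529, Gm15179, Flt1, Egfl7, Tek, Erg, Anpep, S100a4, Twist2, Thy1, Tnnc1 and Krt10 were added after their values were seen.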

Additional observations from a re-analysis of the deposited data

How the results depend on the processing

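Of 19 alternative settings, Acta2, Tagln, Cnn1 and Cald1 kept their direction and call in each that was run for them; at an adjusted p under 0.01 they were the 4 members still called lower, with 1946 genes called higher and 1671 lower in all. With library size alone, 1819 genes were called higher and 4884 lower, the members' median log2 fold change was -0.43 and their summed level differed by -0.34 on the log2 scale; lower genes made up 72.9% of the calls, against 46.2% with TMM and 56.5% with upper quartile factors. Leaving out 1 sample gave 4 to 8 members called lower and 0 to 1 called higher (Tpm1, without normal glucose replicate 1), with 1988 to 3149 genes called higher in all (2010 without high glucose replicate 1 and 1988 without high glucose replicate 3) and 2048 to 3065 called lower. The lowest member count, without high glucose replicate 1, lacked Actg2, Tpm2 and Des. With the replicate block, 6 members were called lower, without Actg2, with 2909 genes called higher and 2418 lower; same-numbered samples correlated at -0.025, 0.0038 and 0.013 in their deviations, and 2 of 6 samples correlated best with their own number. The sign turned for Prrx1 (-0.0028) and Pdgfrb (-0.033) with library size alone, for Pdgfrb without normal glucose replicate 1 (-0.0047, in a range up to 0.12 when each sample was left out) and with GC and length trends removed, an alternative chosen after seeing the data (-0.11 without the replicate block, called at an edgeR adjusted p of 0.0498 in a range up to 0.956, and -0.11 with it, not called), and for the Myl9 to Myl12a ratio without normal glucose replicate 1 (0.019, in a range down to -0.063); the cause was not tested. Counts were lowest for Myh11, Des and Actg2, between 59 and 340 per sample; with counts halved, Des and Actg2 were still called.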
